A study of Mus musculus with 9 samples.

Results

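The 46 genes described here are cell cycle and proliferation genes of the mouse: D-type, E-type, A-type and B-type cyclins with their kinases, inhibitors of these kinases, the Rb and E2F factors, Myc, p53 and Mdm2, and genes of DNA replication and mitosis. They were listed by name and kept whatever their values, but earlier results of these data were known when the list was made. They were matched by symbol to the 55487 gene identifiers that each library was counted on. All 46 were matched, and 44 of them were among the 14312 genes that passed the filter on low counts and could be tested. The RNA came from RAW264.7 cells, a mouse macrophage line, that had received no stimulus. There were 3 libraries of each of 3 genotypes. Wild-type cells carry an intact gene for C/EBPδ, a transcription factor that has been linked to growth arrest, ΔTAD cells carry an in-frame deletion of its transactivation domain, and knock-out cells are clones in which a deletion at the same place put the gene out of frame. Both edited genotypes came from CRISPR/Cas9 editing with guides on both sides of that domain, followed by sorting of single cells and puromycin selection, and the study mentions wild-type clones as well. Per the series' design, 3 independent clones were sequenced, but no label ties a library to a clone, so genotype and clone cannot be told apart, and the p-values may measure a spread that is only technical.

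A cell that divides passes checkpoints that cyclins and cyclin-dependent kinases (CDKs) control. D-type cyclins, whose levels follow growth signals, activate Cdk4 and Cdk6, which phosphorylate the retinoblastoma protein Rb and so free the E2F factors to switch on genes for DNA replication. E-type and A-type cyclins with Cdk2 carry the cell into and through S phase, and B-type cyclins with Cdk1 start mitosis. The inhibitors p21, p27, p18, p15 and p16 hold the kinases back, and p53, which Mdm2 keeps low, raises p21 after damage. Myc promotes growth and entry into the cycle, and most resting tissue macrophages are outside the cycle, whereas a macrophage line such as RAW264.7 divides continuously in culture.

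The libraries held 16113306 to 20981829 counts on genes, so that 3 counts, taken as the floor of detection, equal 0.143 to 0.186 CPM (counts per 1000000 counts of the scaled library). Replicate 1 of ΔTAD stood apart: a ribosomal RNA gene took 11.0012% of its counts against a mean of 1.16% in the other ΔTAD libraries, and its TMM scaling factor was 0.888 against 0.999 to 1.027 in the other 8 libraries. The transcript of Cebpd, the edited gene, had at most 126 counts in wild-type, 91 to 99 in the knock-out and 70 to 130 in ΔTAD libraries, which does not check the labels, because most of the transcript lies outside the deleted stretch. The 8 macrophage markers examined were detected in every genotype, with summed levels of 2616 to 2764 CPM in wild-type, 3629 to 3980 CPM in knock-out and 6009 to 6163 CPM in ΔTAD libraries, while the summed markers of T cells, B cells, neutrophils, epithelial cells, fibroblasts and endothelial cells reached at most 4.04 CPM in any library. Lyz2 carried most of the difference, with 1167 ± 61.9 CPM (SD, n = 3) in wild-type, 2114 ± 146 CPM in knock-out and 4192 ± 76.4 CPM in ΔTAD cells, while Fcgr1 was lower in both: of the 8 markers 5 were called higher and 1 lower in knock-out cells, and 6 higher and 1 lower in ΔTAD cells. Whether the difference in macrophage markers has a part in the cell cycle results was not tested.

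Against wild-type cells, Myc and Ccnd2 changed most, in opposite directions, and Mki67, a general marker of cycling cells, changed little. Myc was 10.48-fold higher in knock-out and 9.39-fold higher in ΔTAD cells, Mdm2 was 2.17-fold and 1.73-fold higher, and the gene for the inhibitor p18, Cdkn2c, was 1.96-fold and 2.39-fold higher. Cyclin D2 (Ccnd2) was 3.36-fold lower in knock-out and 3.06-fold lower in ΔTAD cells, while Mki67 had log2 fold changes of 0.08 and 0.08 that missed the threshold. Of the 44 genes tested, 11 were higher and 16 lower in knock-out cells at an adjusted p under 0.01 (quasi-likelihood test of edgeR, Benjamini-Hochberg adjusted over all 14312 genes). Across all genes tested 45.2% were called in this comparison, 22.8% higher and 22.4% lower, and the 27 called among the 44 are 61.4%, 25% higher and 36.4% lower. In ΔTAD cells 15 of the 44 were higher and 9 lower, against 49.7% of all genes called, 26.3% higher and 23.4% lower. The split depended on the scaling: by library size alone 12 of the 44 were higher and 11 lower, and over all genes the balance turned, from 3765 higher and 3350 lower to 2585 higher and 3943 lower. The median log2 fold change of the 44 was −0.04 in the knock-out and 0.02 in ΔTAD cells, beside −0.00 in both comparisons over all genes, and most changes were small: 3 of the 44 changed by at least 1 on the log2 scale in knock-out cells, against 7.66% of all genes, and 3 in ΔTAD cells, against 9.31%. The libraries of knock-out and wild-type cells did not overlap for 36 of the 44 genes, against 59.7% of all genes, and those of ΔTAD and wild-type cells for 30, against 63.1%. Both comparisons use the same wild-type libraries, so their values are given side by side and not as independent evidence. In RNA of whole cultures, fewer cells in a phase of the cycle and less RNA per cell cannot be told apart.

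**Figure D1:**
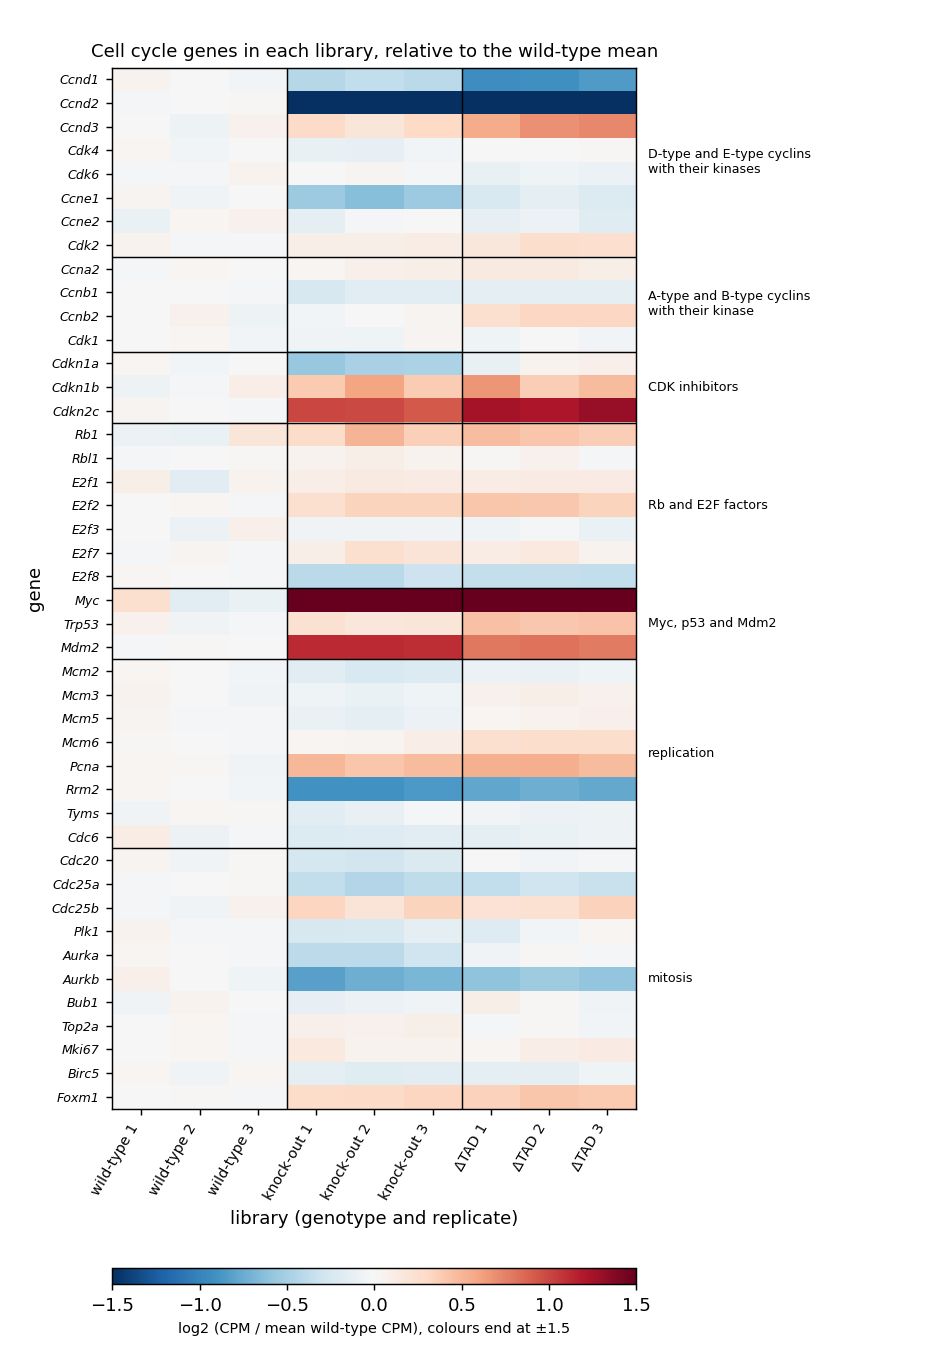
Each row is 1 of the 44 tested genes and each column 1 library, and the colour is the log2 ratio of its CPM to the mean of the 3 wild-type libraries, with the scale ended at ±1.5. Myc and Ccnd2 reach the ends of the scale in all 6 edited libraries, in opposite directions, and most other rows stay pale.

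In wild-type cells, levels per kilobase of exon set the order in which these transcripts were present. Ccnd1 led with 217 ± 7.25 CPM per kilobase (SD, n = 3), ahead of Rrm2 with 167 ± 4.05, Mki67 with 143 ± 3.21, Top2a with 119.9 ± 2.90 and Cdk4 with 118 ± 2.92 CPM per kilobase. Top2a and Cdk4 did not differ beyond their spread. At the other end, Myc was the lowest of the 44 tested genes with 0.934 ± 0.146 CPM per kilobase, below E2f7 with 3.39 ± 0.0852 and Rb1 with 4.39 ± 0.496 CPM per kilobase. In the edited cells Myc stood at 9.91 ± 0.792 CPM per kilobase in knock-out and 8.84 ± 0.465 CPM per kilobase in ΔTAD cells, near the wild-type level of Cdkn2c, 9.99 ± 0.244 CPM per kilobase. Its paralog Mycn, chosen for this comparison after its values were seen, had 217 ± 7.62 CPM per kilobase in wild-type, 108 ± 3.39 in the knock-out and 126 ± 2.13 CPM per kilobase in ΔTAD cells, so Mycn was the more abundant of the pair in all 3 genotypes.

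Myc is a transcription factor that drives cell growth and entry into the cycle. It had 60, 39 and 39 counts in the wild-type, 474, 439 and 516 in the knock-out and 330, 490 and 535 among the ΔTAD libraries. Their scaled levels were 2.99, 2.26 and 2.36 CPM in the wild-type, 24.99, 26.5 and 29.2 CPM in the knock-out and 23.1, 23.5 and 25.5 CPM in the ΔTAD libraries. Every edited library lay far above every wild-type library, and the knock-out and ΔTAD libraries overlapped. The log2 fold change was 3.39 (standard error 0.111, edgeR adjusted p = 3.13e-18) in the knock-out and 3.23 (standard error 0.112, edgeR adjusted p = 8.6e-18) in ΔTAD cells. Between knock-out and ΔTAD cells it was 0.16 (standard error 0.072, edgeR adjusted p = 0.0764), which missed the threshold. Myc lies on the plus strand of GRCm38 chromosome 15, 61985391 to 61990374, and the change did not extend along the chromosome: for the 7 tested genes within 2 Mb on either side, the median log2 fold change was −0.08 in the knock-out and −0.32 in ΔTAD cells. None of the 50-base stretches of its exons occurs in another annotated gene.

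Mdm2 encodes the ubiquitin ligase that marks p53 for degradation, and it is itself a known p53 target. Its levels were 302, 309 and 306 CPM in the wild-type, 667, 663 and 658 CPM in the knock-out and 529, 536 and 523 CPM in the ΔTAD libraries. The 3 genotypes did not overlap, with knock-out above ΔTAD and ΔTAD above wild-type. The log2 fold change was 1.12 (standard error 0.0313, edgeR adjusted p = 1.58e-19) in the knock-out and 0.79 (standard error 0.0311, edgeR adjusted p = 1e-16) in ΔTAD cells, and knock-out exceeded ΔTAD cells by 0.32 (standard error 0.0308, edgeR adjusted p = 8.68e-09). Trp53, the gene for p53, had 157, 144 and 148 CPM in the wild-type, 176, 168 and 169.6 CPM in the knock-out and 203, 198 and 201 CPM in the ΔTAD libraries. Here ΔTAD was highest and wild-type lowest, again without overlap. Trp53 had log2 fold changes of 0.19 (standard error 0.0374, edgeR adjusted p = 0.000116) in the knock-out and 0.42 (standard error 0.0371, edgeR adjusted p = 5.3e-10) in ΔTAD cells, a rise of 1.14-fold and 1.34-fold. The call in knock-out cells was lost when libraries were scaled by their size alone.

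The D-type cyclins did not move together. Ccnd2 had 245, 249.03 and 250.4 CPM in the wild-type, 72.9, 78.2 and 70.8 CPM in the knock-out and 79.1, 84.8 and 78.9 CPM in the ΔTAD libraries. All 6 edited libraries stood well below wild-type, the knock-out libraries just below those of ΔTAD. This gave a log2 fold change of −1.75 (standard error 0.0389, edgeR adjusted p = 1.85e-21) in the knock-out and −1.61 (standard error 0.0384, edgeR adjusted p = 4.63e-21) in ΔTAD cells. Ccnd1, the most abundant D-type cyclin, had 1059, 1015 and 992 CPM in the wild-type, 759, 789 and 769.5 CPM in the knock-out and 534, 539 and 569 CPM in the ΔTAD libraries. Wild-type was highest, knock-out lay between and ΔTAD was lowest, with no overlap between genotypes. This gave −0.40 (standard error 0.0325, edgeR adjusted p = 1.11e-10) in the knock-out and −0.90 (standard error 0.0327, edgeR adjusted p = 2.11e-17) in ΔTAD cells, and between the edited genotypes 0.50 (standard error 0.0326, edgeR adjusted p = 1.05e-11). Of the 50-base stretches in the exons of Ccnd1, 21.6% also belong to LTO1, a gene that overlaps it. The mode and strand setting of the counting are not given in the sources used here, and 0.974% to 1.24% of the records per library were set aside as ambiguous. How many reads of the shared stretch were counted for Ccnd1 is therefore not known. Ccnd3, in contrast, rose: it had 65.7, 61.9 and 68.2 CPM in the wild-type, 79.6, 74.2 and 80.3 CPM in the knock-out and 95.6, 105.02 and 108 CPM in the ΔTAD libraries. ΔTAD libraries were highest and wild-type libraries lowest, without overlap. The difference was 0.26 (standard error 0.0455, edgeR adjusted p = 2.96e-05) in the knock-out and 0.66 (standard error 0.0438, edgeR adjusted p = 2.5e-12) in ΔTAD cells. Ccnd3 lies on chromosome 17, whose 746 tested genes had their median log2 fold change at 0.48 in the knock-out and 0.50 in ΔTAD cells, and relative to these medians it stood at −0.22 and 0.16, so that its direction in knock-out cells turns with the reference.

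The kinases that D-type cyclins activate were not called by edgeR in either edited genotype. Cdk4 had log2 fold changes of −0.09 in the knock-out and 0.01 in ΔTAD cells, and Cdk6 had 0.01 and −0.09. DESeq2 and limma-voom called Cdk4 in knock-out cells, and DESeq2 called Cdk6 in ΔTAD cells. Cyclin E1 (Ccne1), which starts S phase with Cdk2, had 75.8, 71.0 and 73.7 CPM in the wild-type, 50.5, 47.3 and 50.3 CPM in the knock-out and 62.8, 66.6 and 63.5 CPM in the ΔTAD libraries. Knock-out libraries were lowest and ΔTAD libraries lay between, without overlap. Ccne1 fell by 0.57 on the log2 scale in knock-out cells (standard error 0.0415, edgeR adjusted p = 1.55e-11) and by 0.19 in ΔTAD cells (standard error 0.0398, edgeR adjusted p = 0.000211). Cdk2 was called higher in ΔTAD cells, with a log2 fold change of 0.23 (adjusted p = 4.62e-06), and had 0.10 in knock-out cells, while Ccne2 was called in neither. The call of Cdk2 was lost when libraries were scaled by their size alone. Of the 8 genes of this group, 1 was higher and 3 lower in knock-out cells, and 2 were higher and 3 lower in ΔTAD cells. In knock-out cells these are 12.5% higher and 37.5% lower, against 22.8% and 22.4% of all genes. In ΔTAD cells they are 25% and 37.5%, against 26.3% and 23.4% of all genes.

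**Figure D2:**
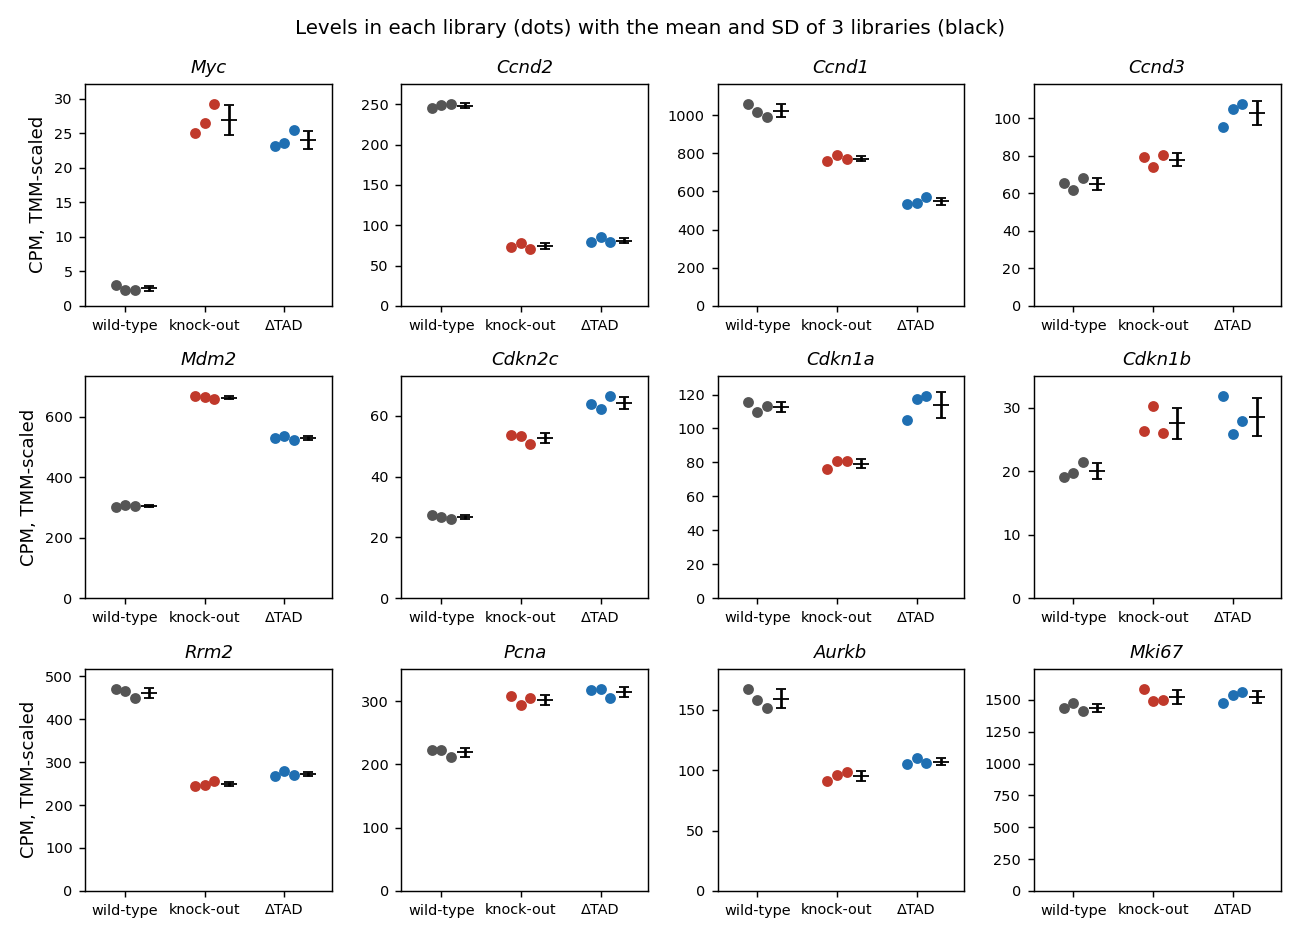
Level of 12 of the genes in each library, as CPM after TMM scaling on a linear axis that starts at 0. Dots are the 3 libraries of a genotype, and black marks the mean and SD. Myc rises from between 2.26 and 2.99 CPM to at least 23.1 CPM in every edited library, Ccnd2 falls to at most 84.8 CPM, and Mki67 stays between 1410.2 and 1588 CPM.

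Of the 5 genes for CDK inhibitors, 3 were detected. Cdkn2c, whose product p18 binds Cdk4 and Cdk6, had 27.5, 26.7 and 26.2 CPM in the wild-type, 53.6, 53.5 and 50.7 CPM in the knock-out and 63.7, 62.2 and 66.3 CPM in the ΔTAD libraries. No library of one genotype overlapped with another, and ΔTAD was highest. The log2 fold change was 0.97 (standard error 0.0497, edgeR adjusted p = 2.2e-14) in the knock-out and 1.26 (standard error 0.0483, edgeR adjusted p = 6.55e-17) in ΔTAD cells. Cdkn1b, the gene for p27, had 19.1, 19.7 and 21.5 CPM in the wild-type, 26.3, 30.3 and 26.1 CPM in the knock-out and 31.8, 25.9 and 27.9 CPM in the ΔTAD libraries. Both edited genotypes were above wild-type and overlapped with each other. It rose by 0.46 (standard error 0.0802, edgeR adjusted p = 3.06e-05) in the knock-out and 0.50 (standard error 0.0794, edgeR adjusted p = 7.81e-06) in ΔTAD cells on the log2 scale. Cdkn1a, whose product p21 is raised by p53 in damaged cells, had 115, 109.7 and 113 CPM in the wild-type, 76.0, 80.7 and 81.1 CPM in the knock-out and 104.8, 117 and 119 CPM in the ΔTAD libraries. Knock-out libraries were lower than all others, whereas ΔTAD and wild-type libraries overlapped. Its log2 fold change was −0.51 (standard error 0.0422, edgeR adjusted p = 1.81e-10) in the knock-out and 0.02 (standard error 0.0405, edgeR adjusted p = 0.752) in ΔTAD cells, and the direct test between knock-out and ΔTAD cells gave −0.53 (standard error 0.042, edgeR adjusted p = 3.8e-10). Like Ccnd3 it lies on chromosome 17 (29090976 to 29100727), where for the 62 tested genes within 2 Mb the median log2 fold change was 0.45 in the knock-out and 0.41 in ΔTAD cells, and relative to the chromosome's medians it stood at −0.99 and −0.48.

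The other inhibitor genes, Cdkn2a and Cdkn2b, which encode p16 with p19Arf and p15, had 0 counts in each of the 9 libraries. A count of 0 allows up to 3 counts, or 0.143 to 0.186 CPM depending on the library, and this limit covers counting error only. They lie beside each other on chromosome 4 of GRCm38, Cdkn2a from 89274471 to 89294653 and Cdkn2b from 89306299 to 89311039. The nearest protein-coding gene before them, Mtap, had 1785 to 2806 counts per library, while Ifna1 and Ifne before it and Dmrta1, Zfp352 and Elavl2 after them had 0 counts in all 9 libraries. Whether the region is present in these cells was not tested.

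Among the Rb and E2F factors, 2 of 7 were called higher and 1 lower in each edited genotype. These are 28.6% higher and 14.3% lower. Of all genes, 22.8% were higher and 22.4% lower in knock-out cells, and 26.3% and 23.4% in ΔTAD cells. Rb1, the gene for the retinoblastoma protein, had 24.8, 24.6 and 29.9 CPM in the wild-type, 32.1, 37.6 and 33.9 CPM in the knock-out and 36.3, 35.2 and 34.2 CPM in the ΔTAD libraries. Edited and wild-type libraries did not overlap, and the edited genotypes overlapped with each other. On the log2 scale it changed by 0.39 (standard error 0.0723, edgeR adjusted p = 6.32e-05) in the knock-out and 0.42 (standard error 0.0717, edgeR adjusted p = 2.05e-05) in ΔTAD cells. E2f2, an activating E2F, had 35.1 ± 0.577 CPM (SD, n = 3) in wild-type, 43.3 ± 1.52 CPM in knock-out and 45.8 ± 1.26 CPM in ΔTAD cells, with log2 fold changes of 0.30 (adjusted p = 1.43e-05) and 0.38 (adjusted p = 3.78e-07). The repressor gene E2f8 was lower, with 102.6 ± 2.16 CPM (SD, n = 3) in wild-type, 79.0 ± 3.04 CPM in knock-out and 79.8 ± 0.118 CPM in ΔTAD cells, and log2 fold changes of −0.38 (adjusted p = 9.69e-10) and −0.36 (adjusted p = 1.49e-09). Rbl1 (p107), E2f1, E2f3 and E2f7 were called in neither comparison, with log2 fold changes between −0.05 and 0.18 in the knock-out and between −0.06 and 0.12 in ΔTAD cells. No gene of this group was called between knock-out and ΔTAD cells by edgeR.

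The replication genes were split. Rrm2, the small subunit of ribonucleotide reductase that supplies deoxynucleotides, had 471, 465 and 449 CPM in the wild-type, 246, 247 and 255 CPM in the knock-out and 269, 279 and 271 CPM in the ΔTAD libraries. All edited libraries lay far below wild-type. The log2 fold change was −0.89 (standard error 0.0353, edgeR adjusted p = 1.48e-16) in the knock-out and −0.76 (standard error 0.0352, edgeR adjusted p = 2.46e-15) in ΔTAD cells. Rrm2 lies on chromosome 12, where the median log2 fold change of the 541 tested genes was −0.52 in the knock-out and −0.54 in ΔTAD cells, so that relative to the chromosome it stood at −0.37 and −0.22, and the 11 tested genes within 2 Mb had a median of −0.06 in the knock-out and −0.28 in ΔTAD cells. Pcna, the sliding clamp of the replication fork, had 224, 222 and 211 CPM in the wild-type, 308, 293 and 304 CPM in the knock-out and 318, 319 and 305 CPM in the ΔTAD libraries. It rose in both edited genotypes, which overlapped with each other. The rise on the log2 scale was 0.46 (standard error 0.037, edgeR adjusted p = 9.42e-11) in the knock-out and 0.52 (standard error 0.0369, edgeR adjusted p = 9.13e-12) in ΔTAD cells, with 19.1% of its 50-base stretches shared with the pseudogene Pcna-ps2. Of the helicase subunits, Mcm2 had log2 fold changes of −0.20 (adjusted p = 3.96e-05) in the knock-out and −0.08 (adjusted p = 0.0508) in ΔTAD cells, and Mcm5 had −0.11 (adjusted p = 0.00807) and 0.06 (adjusted p = 0.177). Mcm6 had 0.06 (adjusted p = 0.17) in the knock-out and 0.26 (adjusted p = 3.88e-07) in ΔTAD cells, while Mcm3 and the thymidylate synthase gene Tyms were called in neither. Cdc6, which loads the helicase at origins, had −0.19 (adjusted p = 0.000623) in the knock-out and −0.11 (adjusted p = 0.0314) in ΔTAD cells. In all, 1 of the 8 replication genes was higher and 4 were lower in knock-out cells, and 2 were higher and 1 lower in ΔTAD cells. In knock-out cells these are 12.5% higher and 50% lower, against 22.8% and 22.4% of all genes. In ΔTAD cells they are 25% and 12.5%, against 26.3% and 23.4% of all genes. The call of Mcm5 in knock-out cells was lost without any 1 of the knock-out or wild-type libraries, with the replicate block, with scaling by library size alone and with TMM outside chromosomes 12 and 17, that of Cdc6 without wild-type replicate 1, and that of Mcm6 in ΔTAD cells with scaling by library size alone.

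Of the 4 genes for A-type and B-type cyclins and their kinase, which act from S phase to mitosis, 0 were called higher and 1 lower in knock-out cells. In ΔTAD cells 2 were higher and 1 lower. These are 0% higher and 25% lower in knock-out cells, against 22.8% and 22.4% of all genes, and 50% and 25% in ΔTAD cells, against 26.3% and 23.4%. Ccnb2 had 87.6, 91.5 and 82.4 CPM in the wild-type, 84.7, 87.3 and 89.5 CPM in the knock-out and 103.04, 108 and 108 CPM in the ΔTAD libraries. Knock-out and wild-type libraries overlapped, and ΔTAD libraries were above both. Its log2 fold change was −0.00 (standard error 0.0386, edgeR adjusted p = 0.983) in the knock-out and 0.29 (standard error 0.0376, edgeR adjusted p = 3.89e-07) in ΔTAD cells. Ccnb1 had −0.19 (adjusted p = 1.58e-05) in the knock-out and −0.15 (adjusted p = 0.000325) in ΔTAD cells, with 23.4% of its 50-base stretches shared with other annotated genes, among them Ccnb1-ps, and Ccna2 had 0.06 (adjusted p = 0.124) and 0.12 (adjusted p = 0.00545). Their kinase gene Cdk1 had 177 ± 4.4998 CPM (SD, n = 3) in wild-type, 174 ± 7.18 CPM in knock-out and 173 ± 3.61 CPM in ΔTAD cells and was called in neither comparison. The call of Ccna2 in ΔTAD cells was lost without ΔTAD replicate 1 or 2, without wild-type replicate 1 or 3, with the replicate block, with only the genotypes compared, with the stricter filter and with each other scaling tried.

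Among the 11 mitosis genes, 2 were higher and 6 lower in knock-out cells, and 2 were higher and 3 lower in ΔTAD cells. These are 18.2% higher and 54.5% lower in knock-out cells, against 22.8% and 22.4% of all genes, and 18.2% and 27.3% in ΔTAD cells, near the 26.3% and 23.4% of all genes. Aurkb, the kinase of the chromosomal passenger complex, had 168, 159 and 152 CPM in the wild-type, 90.8, 96.2 and 98.7 CPM in the knock-out and 105.1, 110.2 and 105.9 CPM in the ΔTAD libraries. Its edited libraries did not reach the lowest wild-type library. The log2 fold change was −0.74 (standard error 0.0387, edgeR adjusted p = 2.91e-14) in the knock-out and −0.57 (standard error 0.0382, edgeR adjusted p = 2.8e-12) in ΔTAD cells. Aurka, the spindle pole kinase, had 168, 166 and 161 CPM in the wild-type, 126, 126 and 134 CPM in the knock-out and 159, 167 and 163 CPM in the ΔTAD libraries. Knock-out libraries were lower than all 6 others, and ΔTAD and wild-type libraries overlapped. Its log2 fold change was −0.36 (standard error 0.0365, edgeR adjusted p = 7.04e-09) in the knock-out and −0.02 (standard error 0.0359, edgeR adjusted p = 0.712) in ΔTAD cells, and between knock-out and ΔTAD cells it was −0.34 (standard error 0.0364, edgeR adjusted p = 5.58e-08). Cdc25a, a phosphatase that activates CDKs, had 99.6, 102.7 and 103.4 CPM in the wild-type, 78.7, 75.05 and 78.1 CPM in the knock-out and 79.2, 82.5 and 81.0 CPM in the ΔTAD libraries. Both edited genotypes lay below wild-type without overlap. It fell, with log2 fold changes of −0.40 (standard error 0.0335, edgeR adjusted p = 2.69e-10) in the knock-out and −0.33 (standard error 0.0332, edgeR adjusted p = 5.15e-09) in ΔTAD cells. The related phosphatase gene Cdc25b and Foxm1, a transcription factor of G2 genes, were higher, Cdc25b with 0.29 (adjusted p = 3.46e-06) and 0.27 (adjusted p = 7.33e-06) and Foxm1 with 0.29 (adjusted p = 6.24e-08) and 0.38 (adjusted p = 4.06e-10). Birc5 (survivin) had −0.17 (adjusted p = 0.00014) in the knock-out and −0.11 (adjusted p = 0.0067) in ΔTAD cells, the latter called by neither DESeq2 nor limma-voom, and lost with every gene of at least 1 count and without ΔTAD replicate 2 or wild-type replicate 1 or 3. Cdc20 and Plk1, both needed to pass through mitosis, had −0.25 (adjusted p = 9.15e-07) and −0.20 (adjusted p = 0.00037) in knock-out cells, and −0.03 (adjusted p = 0.534) and −0.07 (adjusted p = 0.204) in ΔTAD cells.

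EdgeR called none of the markers Mki67, Top2a and Bub1 in either edited genotype. Mki67 had 1434, 1474 and 1410.2 CPM in the wild-type, 1588, 1492 and 1497 CPM in the knock-out and 1475, 1538 and 1564 CPM in the ΔTAD libraries. Every edited library lay above every wild-type library, the lowest of them only just. Its log2 fold change was 0.08 (standard error 0.0287, edgeR adjusted p = 0.0159) in the knock-out and 0.08 (standard error 0.0287, edgeR adjusted p = 0.0147) in ΔTAD cells, above the threshold of 0.01 in both. Top2a, the topoisomerase of dividing cells, had log2 fold changes of 0.07 (adjusted p = 0.0251) and −0.01 (adjusted p = 0.663), and the checkpoint kinase gene Bub1 had −0.09 (adjusted p = 0.0667) and 0.02 (adjusted p = 0.692). A p that misses the threshold does not show equal levels: limma-voom called Mki67 higher in both comparisons and Top2a in knock-out cells, and edgeR called it in knock-out cells without knock-out or wild-type replicate 2 and in ΔTAD cells without knock-out replicate 1.

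**Figure D3:**
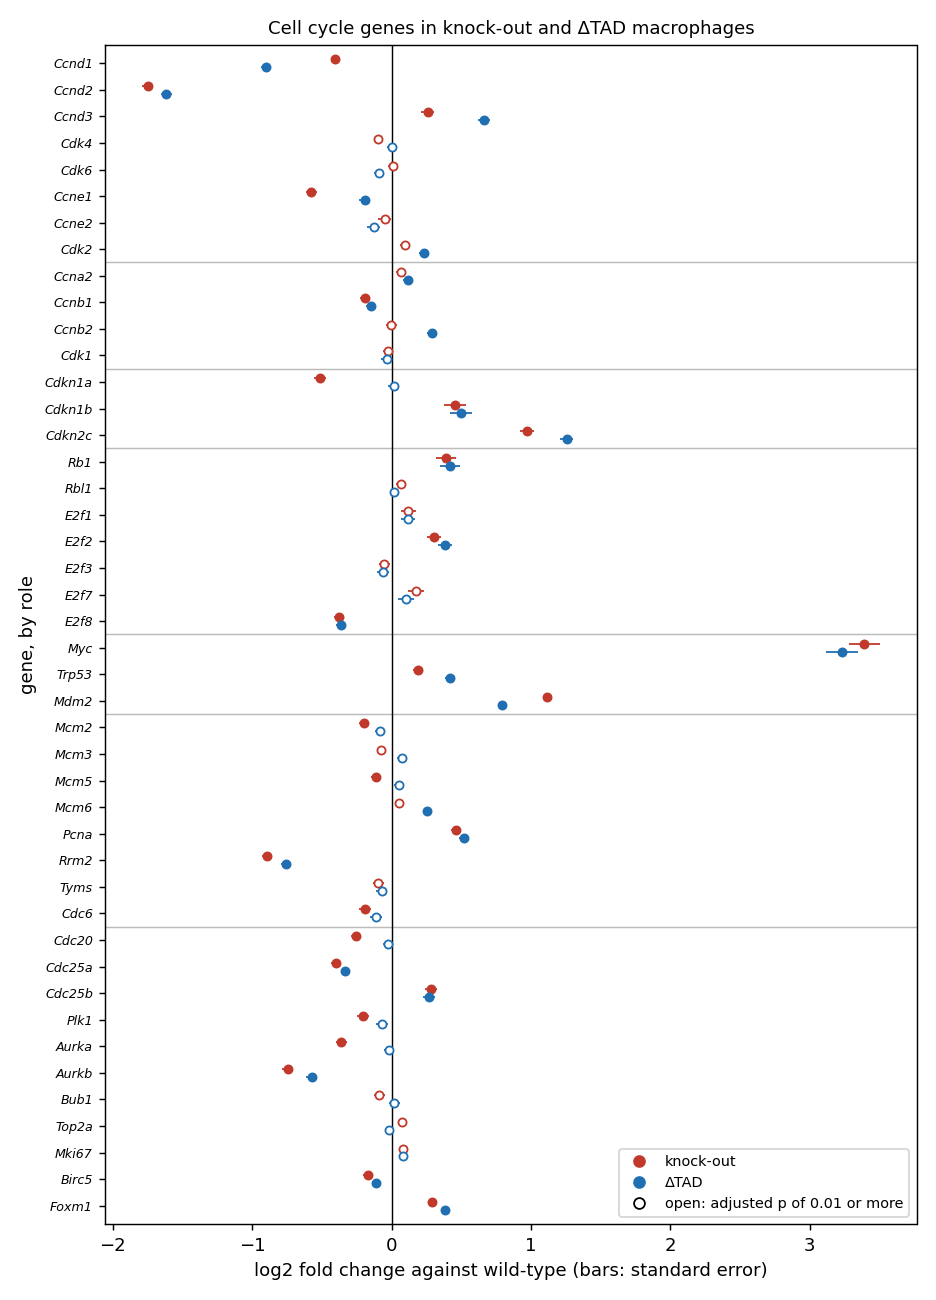
Log2 fold change against wild-type of the 44 tested genes, ordered by role, in knock-out (red) and ΔTAD (blue) cells. Bars are standard errors, and open circles mark an adjusted p of 0.01 or more. Myc stands out at 3.39 and 3.23 and Ccnd2 at −1.75 and −1.61.

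Knock-out and ΔTAD cells differ in whether a C/EBPδ protein without the transactivation domain can be made. Their fold change does not use the wild-type level, but the filter, the scaling and the spread were taken over all 9 libraries, wild-type included. Of the 44 genes, 2 were higher and 15 lower in knock-out than in ΔTAD cells, against 33.0% of all genes called, 13.9% higher and 19.1% lower, and the libraries did not overlap for 28 of the 44, against 52.8% of all genes. The median log2 difference of the 44 was −0.07, beside −0.03 over all genes, and none of them reached 1 on the log2 scale, against 3.93% of all genes. The genes higher in knock-out cells were Ccnd1 and Mdm2, with the values given above. Among those lower, Cdkn1a, Ccnd3, Ccne1 and Aurka differed most, Ccnd3 by −0.40 (standard error 0.0429, edgeR adjusted p = 5.87e-08) and Ccne1 by −0.38 (standard error 0.0421, edgeR adjusted p = 9.3e-08). Ccnb2 followed with −0.29 (standard error 0.0377, edgeR adjusted p = 1.22e-06) and Cdkn2c with −0.29 (standard error 0.0437, edgeR adjusted p = 1.12e-05). The rest were Trp53 with −0.23, Cdc20 with −0.23, Mcm6 with −0.20, Mcm5 and Aurkb with −0.17 each, Mcm3 with −0.15, Cdk2 with −0.14, Rrm2 with −0.13 and Mcm2 with −0.12. All 8 replication genes had a value below 0, and edgeR called 5 of them (62.5%, against 19.1% of all genes lower), but with scaling by library size alone all 5 calls were lost. The balance of this comparison depended on the scaling: with library size alone 2 were higher and 6 lower, and with TMM computed on genes outside chromosomes 12 and 17, an alternative added after seeing the data, 4 were higher and 12 lower. Without ΔTAD replicate 1 the counts were 3 higher and 14 lower, and with only these 2 genotypes in the model 4 higher and 11 lower. Over all genes the balance moved more. In place of 1990 higher and 2740 lower there were 2293 and 2274 without ΔTAD replicate 1. With TMM outside chromosomes 12 and 17 there were 2239 and 2318. With library size alone the balance of all genes turned, to 2281 higher and 1024 lower, while the 44 still had more lower than higher. With only these 2 genotypes in the model there were 2257 and 2213. The lower lean of all genes that the 44 are read against thus depended on ΔTAD replicate 1, on the scaling and on the wild-type libraries in the model. Single calls were fragile here: that of Mcm2 was lost without any 1 of the 9 libraries, those of Cdk2 and Rrm2 without any 1 of 4, and those of Mcm3 and Aurkb without knock-out replicate 2 and 1, respectively. The replicate block ended the calls of Mcm2 and Rrm2, and the model of these 2 genotypes alone those of Cdk2, Mcm2, Mcm3 and Rrm2.

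Many of these genes share promoter elements, which the choice of genes did not use. RefSeq's promoter table of GRCm38.p6, with windows of 300 bases around transcription starts, held 44 windows for 38 of the 46 genes, and each was searched on both strands. E2F factors bind TTTCCCGC, TTTGGCGC or TTTCGCGC, and at least 1 of these stood in 27.3% of the 44 windows against 1.84% of all 32851 windows in the table. The cell cycle homology region (CHR), through which late cell cycle genes are repressed in G1, was searched as TTTGAA or TTTAAA and stood in 43.2% of the windows against 27.6% of all. A CCAAT box, bound by NF-Y, stood in 65.9% against 37.4%, and a C/EBP site, TTNNGCAA, in 6.82% against 10.8%, those of Cdkn2c, Mcm3 and Pcna. The windows of Cdc20 (chr4:118437344-118437463, minus strand), Plk1 (chr7:122159315-122159434, plus strand) and Ccnb1 (chr13:100786487-100786606, minus strand) are shown before the start, because all 3 genes fell in knock-out cells, with CHR and CCAAT matches in capitals. They were thus picked by outcome. Both matches also stood for E2f8, Mcm2, Mcm5, Rrm2 and Aurka, called lower in knock-out cells, and for Cdkn1b, E2f2 and Mdm2, called higher. Ccnb2, Cdk1, E2f3, Top2a and Mki67 held both as well and were not called there.
Cdc20: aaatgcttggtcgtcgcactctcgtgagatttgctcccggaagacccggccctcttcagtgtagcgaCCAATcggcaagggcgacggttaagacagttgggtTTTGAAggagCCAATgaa
Plk1: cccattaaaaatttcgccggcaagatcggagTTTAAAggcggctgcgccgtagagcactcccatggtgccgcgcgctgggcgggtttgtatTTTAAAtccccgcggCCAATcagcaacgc
Ccnb1: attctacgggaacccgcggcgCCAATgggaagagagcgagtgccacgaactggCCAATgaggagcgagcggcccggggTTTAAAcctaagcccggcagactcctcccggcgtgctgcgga

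Of the 18 tested genes with a CHR match, 3 were higher and 10 lower in knock-out cells, and of the 18 tested genes in the table without a match, 5 were higher and 3 lower. In ΔTAD cells the counts were 4 higher and 5 lower with a match, and 7 higher and 1 lower without. Over all genes tested, 22.8% were higher and 22.4% lower in knock-out cells, and 26.3% and 23.4% in ΔTAD cells. These counts are a description, and no difference between them was tested. E2F matches are shown in capitals for Cdc6 (chr11:98907991-98908150, plus strand), Mcm5 (chr8:75109349-75109508, plus strand) and Mcm6 (chr1:128359706-128359865, minus strand), 3 replication genes of which the first pair fell in knock-out cells and the last rose in ΔTAD cells.
Cdc6: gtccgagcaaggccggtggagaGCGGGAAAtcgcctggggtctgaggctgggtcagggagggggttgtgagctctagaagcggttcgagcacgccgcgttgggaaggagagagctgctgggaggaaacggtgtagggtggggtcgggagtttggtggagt
Mcm5: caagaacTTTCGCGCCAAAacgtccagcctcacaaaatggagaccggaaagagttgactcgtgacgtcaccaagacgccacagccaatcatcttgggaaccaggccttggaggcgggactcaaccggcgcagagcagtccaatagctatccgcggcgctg
Mcm6: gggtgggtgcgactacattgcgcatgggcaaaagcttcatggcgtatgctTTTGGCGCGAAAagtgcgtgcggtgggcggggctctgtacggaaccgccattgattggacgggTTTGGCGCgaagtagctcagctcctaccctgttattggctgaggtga

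Of the 11 tested genes with an E2F match, 1 was higher and 3 lower in knock-out cells, and 3 were higher and 1 lower in ΔTAD cells. Without a match were 25 tested genes in the table, 7 higher and 10 lower in knock-out cells, and 8 higher and 5 lower in ΔTAD cells. Of the 27 tested genes with a CCAAT match, 8 were higher and 9 lower in knock-out cells, and 11 and 4 in ΔTAD cells. Of the 9 without, 0 were higher and 4 lower, and 0 and 2. Of the 3 genes with a C/EBP site, 2 were higher and 0 lower in both. Of the 33 without, 6 were higher and 13 lower in knock-out cells, and 9 and 6 in ΔTAD cells. All these counts are read against the same shares of all genes, 22.8% and 22.4% in knock-out cells and 26.3% and 23.4% in ΔTAD cells. No difference was tested here either. A window of Cdkn1a (chr17:29090859-29090978, plus strand), alone among the 44, held paired p53 half-sites, present in 0.71% of all windows. They were searched after seeing the data as CATG, 6 bases of any kind and CATG. Another window of Cdkn1a, chr17:29093519-29093818, held none. Sites outside the windows were not searched, so a window without a match, such as that of Mdm2, does not show that a gene lacks them. The window of Cdkn1a with the match is shown, the match in capitals, since Cdkn1a was lower in knock-out cells while Mdm2 and Trp53 were higher.
Cdkn1a: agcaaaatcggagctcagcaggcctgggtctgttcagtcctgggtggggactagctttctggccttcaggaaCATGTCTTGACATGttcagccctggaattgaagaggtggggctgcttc

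A wider list of 172 further cell cycle genes, of which 171 were matched and 166 tested, had 35 higher and 51 lower in knock-out cells and 50 higher and 46 lower in ΔTAD cells. The shares were 21.1% higher and 30.7% lower in knock-out cells, beside 22.8% and 22.4% of all genes, and 30.1% and 27.7% in ΔTAD cells, beside 26.3% and 23.4%, and those of the lists that follow are read against the same shares. The other replication genes had 6 higher and 13 lower of 45 in knock-out, and 15 higher and 10 lower in ΔTAD cells. Chaf1a, a chromatin assembly factor on chromosome 17, had the highest value among them with 0.48 (adjusted p = 2.71e-11) in the knock-out and 0.62 (adjusted p = 2.03e-13) in ΔTAD cells, Pole2 on chromosome 12 the lowest in knock-out with −0.38 (adjusted p = 0.000182) and Orc3 the lowest in ΔTAD cells with −0.33 (adjusted p = 1.42e-08). Relative to the medians of their chromosomes, Chaf1a stood at 0.00 in the knock-out and 0.12 in ΔTAD cells, and Pole2 turned to 0.14 in knock-out cells. The other mitosis genes had 13 higher and 8 lower of 48 in knock-out, and 15 higher and 12 lower in ΔTAD cells. Here the kinetochore gene Ndc80, on chromosome 17, led in knock-out cells with 0.75 (adjusted p = 2.35e-15) and the spindle gene Nusap1 in ΔTAD cells with 0.77 (adjusted p = 1.41e-13), while Incenp, a partner of Aurkb, was lowest in knock-out with −0.38 (adjusted p = 1.55e-09) and the condensin gene Smc4 in ΔTAD cells with −0.38 (adjusted p = 5.96e-08). Ndc80 stood at 0.26 relative to its chromosome in knock-out cells. The other CDK regulators had 7 higher and 4 lower of 23 in knock-out, and 9 higher and 3 lower in ΔTAD cells. Ccng2, a cyclin linked to cell cycle exit, rose most, with 1.34 (adjusted p = 1.01e-10) in the knock-out and 1.58 (adjusted p = 2.17e-12) in ΔTAD cells, and Mnat1 of the CDK-activating kinase, on chromosome 12, fell most, with −0.66 (adjusted p = 1.87e-10) and −0.55 (adjusted p = 2.47e-09), or −0.13 and −0.01 relative to its chromosome. The other Rb, E2F and DREAM genes had 4 higher and 6 lower of 14 in knock-out, and 3 higher and 5 lower in ΔTAD cells. Tfdp2, a partner of E2F factors, was highest with 0.57 (adjusted p = 1.74e-06) and 0.77 (adjusted p = 9.62e-09), and the repressor E2f6, on chromosome 12, lowest with −0.67 (adjusted p = 7.07e-15) and −0.69 (adjusted p = 3.26e-15), or −0.15 and −0.15 relative to its chromosome. With libraries scaled by their size alone, the lean of 2 lists in ΔTAD cells turned, to 6 higher and 12 lower replication genes and 6 higher and 15 lower mitosis genes, and the CDK regulators were even with 3 higher and 3 lower. The mitosis list in ΔTAD cells also had 14 higher and 14 lower with the size factors of DESeq2, and 14 higher and 15 lower with TMM outside chromosomes 12 and 17.

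**Figure D4:**
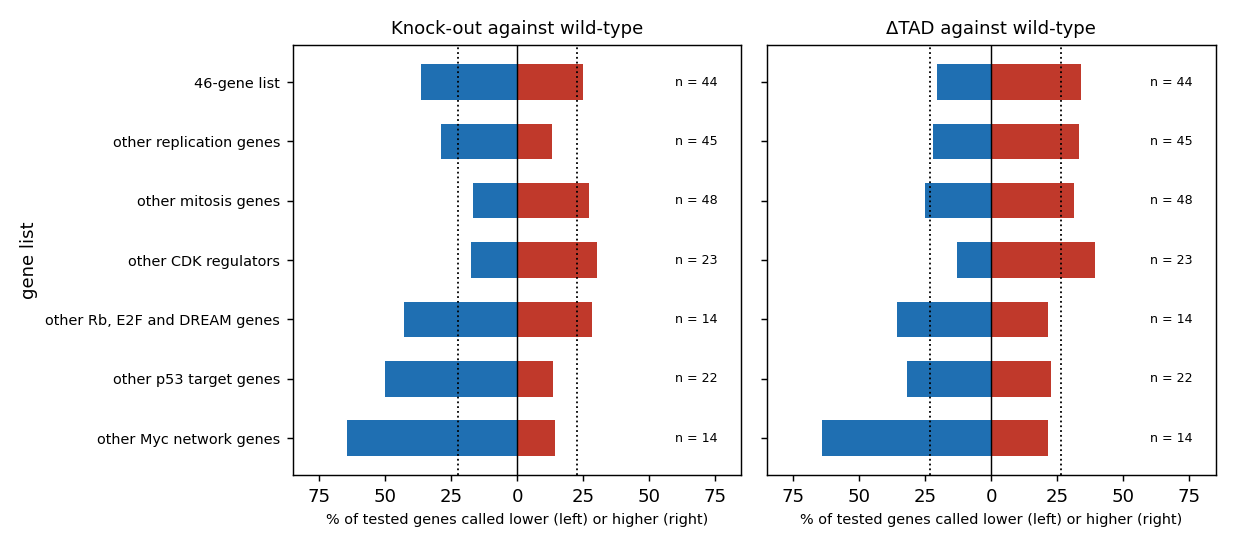
Percentage of tested genes called lower (left, blue) or higher (right, red) at an adjusted p under 0.01 in each list, for knock-out and ΔTAD cells against wild-type, where n is the number tested and dotted lines mark the percentages over all 14312 genes. The Myc network and p53 target lists lean to the lower side in knock-out cells, with 9 of 14 and 11 of 22 genes lower.

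Targets of p53 give a reading beside Trp53, Mdm2 and Cdkn1a. Of 22 other p53 target genes tested, 3 were higher and 11 lower in knock-out cells, and 5 were higher and 7 lower in ΔTAD cells, with median log2 fold changes of −0.33 and −0.07. In knock-out cells these are 13.6% higher and 50% lower, against 22.8% and 22.4% of all genes, and in ΔTAD cells 22.7% and 31.8%, near the 26.3% and 23.4% of all genes. Fas, a death receptor, had 5, 4 and 5 counts in the wild-type, 45, 50 and 40 in the knock-out and 20, 23 and 25 in the ΔTAD libraries, a log2 fold change of 3.26 (standard error 0.307, edgeR adjusted p = 1.89e-09) in the knock-out and 2.19 (standard error 0.354, edgeR adjusted p = 9.04e-06) in ΔTAD cells from levels near the floor. Eda2r had 19, 14 and 14 counts in the wild-type and 5, 5 and 12 in the ΔTAD libraries but 0 in every knock-out library, which makes it at least 4.80-fold lower in knock-out cells against the floor of 3 counts per library. Btg2, an antiproliferative gene, was lowest in ΔTAD cells with −1.28 (adjusted p = 2.56e-06). Bax, Ccng1 and Zmat3, picked after their values were seen, had log2 fold changes of −0.36, −0.70 and −0.60 in knock-out cells and −0.12, −0.09 and −0.12 in ΔTAD cells. Beside the higher level of Mdm2 in knock-out cells, 11 of the 22 other targets were lower, 3 were higher and 8 were not called. The activity of p53 was not tested.

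Genes of the Myc network were mostly lower, while Myc was higher. Their list mixes paralogs of Myc, its partner Max, genes such as Mxd1 that compete with Myc, and known targets. Its counts are therefore not those of targets alone. Of 14 tested, 2 were higher and 9 lower in knock-out, and 3 were higher and 9 lower in ΔTAD cells, with median log2 fold changes of −0.33 and −0.29. The lower genes were 64.3% in both, against 22.4% and 23.4% of all genes. The lower side stayed ahead under the 3 other scalings, with 9 lower in knock-out cells and 9 or 10 lower in ΔTAD cells. The Myc targets Ncl and Npm1, nucleolar proteins, were picked after their values were seen. They had log2 fold changes of −0.61 and −0.76 in the knock-out and −0.50 and −0.60 in ΔTAD cells. Nop56 and Cad of the same list are not given one by one. Odc1, the ornithine decarboxylase gene on chromosome 12, was lowest in ΔTAD cells with −1.95 (adjusted p = 3.26e-23) and had −1.28 (adjusted p = 9.38e-20) in knock-out cells. Tert, the telomerase subunit, was lowest in knock-out cells with −1.86 (adjusted p = 1.2e-06) and had −1.73 (adjusted p = 1.98e-06) in ΔTAD cells, from 2.73 ± 0.233 CPM (SD, n = 3) in wild-type. Mycn, on chromosome 12, had 733, 686 and 725 CPM in the wild-type, 367, 353 and 345 CPM in the knock-out and 407, 413 and 421 CPM in the ΔTAD libraries, without overlap between genotypes. It fell, with log2 fold changes of −1.01 (standard error 0.0352, edgeR adjusted p = 1.18e-17) in the knock-out and −0.79 (standard error 0.035, edgeR adjusted p = 1.1e-15) in ΔTAD cells, and so did Max, the partner of both Myc proteins, with −0.68 and −0.42, also on chromosome 12. Relative to the medians of chromosome 12, Mycn stood at −0.49 in the knock-out and −0.25 in ΔTAD cells, and Max at −0.15 and 0.12, so that the direction of Max in ΔTAD cells turns with the reference. Odc1 stood at −0.76 and −1.41 on the same reference. Mxd1, which competes with Myc for Max, was highest in knock-out cells with 0.79 (adjusted p = 4.61e-08), and Mxd4 in ΔTAD cells with 1.49 (adjusted p = 1.57e-06).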

How the data were processed

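RNA from unstimulated RAW264.7 cells was analysed in 9 libraries, 3 per genotype, grouped by the genotype in the labels. Per the labels, total RNA was depleted of ribosomal RNA before library preparation. The authors trimmed the reads with Trimmomatic, aligned them with HISAT2 and used HTSeq for counting (the submitters' processing notes name Trimmomatic 0.36 and HISAT2 2.3.4.3) on GRCm38. They deposited 1 list of raw counts per library, whole numbers without normalization. Tally lines that name no gene were left out, and in each library 46.7% to 53.2% of the records fell on genes. Counting mode and strand are not given in the sources used here, so overlapping genes and paralogs are uncertain.

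The test was edgeR 4.0.16 (R 4.3.3): filterByExpr (minimum count 10, minimum total 15), TMM scaling and 1 quasi-likelihood model with a mean per genotype over all 9 libraries. Genes with a Benjamini-Hochberg adjusted p under 0.01 over the 14312 tested were called, the threshold of the study's methods, which name no test for the counts. The standard error of a fold change was its log2 value over the root of the F statistic. CPM are counts per 1000000 of the TMM-scaled library size, and positions and exon lengths are those of GENCODE on GRCm38. Within genotypes no libraries were identical: counts differed by a chi-square of 2.01 to 4.18 per gene, apart from ΔTAD replicate 1, which differed from the other ΔTAD libraries by at least 150. On simulated data with 200 changed genes, edgeR recovered 85% of those changed by 1 on the log2 scale in knock-out against wild-type, and 66% of those changed by 0.5, among 14147 genes. For ΔTAD against wild-type it recovered 85% and 63%, and called 3 unchanged genes. Smaller changes were not simulated. Far fewer genes changed there than the 45.2% and 49.7% called here, with 1 spread for all genes and no library like ΔTAD replicate 1, so these shares need not hold for the data.

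The 46 genes, the wider lists and the markers were chosen with earlier results of these data known. Values for every library are given for the 12 called genes of the 46 with the largest absolute log2 fold change in each comparison with wild-type (at least 1 CPM in the higher genotype), the 8 in knock-out against ΔTAD, and Cdkn1a, Cdkn2a, Cdkn2b, Ccnd1, Myc, Trp53 and Mki67. From each wider list the highest and lowest called gene per comparison is named. Bax, Ccng1, Zmat3, Ncl, Npm1, Mycn and Max were named outside this rule, with their values known. Other settings tried were DESeq2 1.42.0, limma-voom with limma 3.58.1, other scalings, filters, thresholds, models of 2 genotypes, the replicate number as a block, chromosome medians as the reference, and leaving out each library.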

Additional observations from a re-analysis of the deposited data

How the results depend on the processing

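No call of the 46 genes changed direction under another test, scaling, filter or model, or without any library. Requiring a change of 1 or more on the log2 scale left 2 higher and 1 lower of the 46 in knock-out cells, 2 and 1 in ΔTAD cells, and 0 and 0 between knock-out and ΔTAD cells (3262, 3765 and 1990 genes of all were higher before it, and 518, 585 and 326 after, and 3206, 3350 and 2740 were lower before it, and 578, 748 and 237 after). Between knock-out and ΔTAD cells, the genes of the 46 that were higher numbered 4 in place of 2 with DESeq2, with limma-voom, with only those 2 genotypes in the model, with TMM on genes outside chromosomes 12 and 17, and at an adjusted p under 0.05. With library size alone, 6 in place of 15 of the 46, and 1024 in place of 2740 of all genes, were lower, and against wild-type ΔTAD cells had 12 higher and 11 lower of the 46, and 2585 higher and 3943 lower of all. Here the ribosomal RNA in ΔTAD replicate 1 enters the library size. Relative to the median of its chromosome, Ccnd3 in knock-out cells was at −0.22 in place of 0.26. Leaving out 1 library gave 11 to 12 higher and 14 to 16 lower in knock-out, 14 to 16 and 8 to 10 in ΔTAD cells, and 2 to 3 and 11 to 15 between them. The replicate numbers did not pair libraries: deviations from the genotype means of same-numbered libraries correlated between −0.07 and 0.02, with 0 of 9 pairs over 0.1. With the replicate block the counts were 11 and 15, 14 and 9, and 2 and 13. It ended the calls of Mcm5 in knock-out and Ccna2 in ΔTAD cells, and of Mcm2 and Rrm2 between them. Depth limits the low genes: in wild-type libraries Fas had 4 or 5 counts and Myc 39 to 60, and Eda2r had 0 in every knock-out library.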
